A study of Mus musculus with 2 samples.

Results

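Close pairs of Ptf1a sites are described here: neighbouring listed positions 150 to 600 bp apart on chromosomes 1 to 19, with no other listed position within 3000 bp of either. There were 1236 such pairs, which took 2472 of the 30691 listed Ptf1a positions, and 33 (chromosome 13) to 103 (chromosome 5) pairs per chromosome. Another 1234 neighbouring pairs of the same distances had a further position nearby or lay on chromosome X. The data came from 266.6 cells, a mouse pancreatic cell line of C57BL/6 X SJL strain, at passage 26. The cells were cross-linked with 1% formaldehyde for 10 min. A Ptf1a chromatin immunoprecipitation (ChIP) library, made from 2 combined immunoprecipitations, was set beside a library of input chromatin of the same line made with no antibody. There was 1 library per group (28502488 ChIP reads and 27959618 input reads) and no replicate, so the tests below compare reads of these libraries and every interval covers counting error only. Where all reads were counted (input, and ChIP against input), copies of 1 amplified fragment count as separate reads, and those intervals are narrower than the true error.

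Ptf1a, a transcription factor of the basic helix-loop-helix family, acts in pancreas formation and in acinar cells. It binds DNA in the PTF1 complex, together with an E protein partner and RBPJ or its acinar relative RBPJL. The complex recognises a bipartite element, an E-box next to an RBPJ motif. Regulatory regions often carry several binding sites for the same factor, and ChIP reads of neighbouring sites overlap when sites lie closer than the length of the fragments. Chromatin had been fragmented to 100 to 500 bp, and pieces of 100 to 400 bp were isolated, so the pairs span the range in which piles begin to merge. Genome sequence of the build of these files (mm9) was not used here, and neither motifs nor neighbouring genes were analysed here.

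Distances between 250 and 399 bp prevailed. The median distance was 360.5 bp (quartiles 292.75 and 461.25), and 628 of the 1236 pairs (50.8%) lay 250 to 399 bp apart. In classes of 50 bp, 27 pairs lay 150 to 199 bp apart and 98 lay 200 to 249 bp apart. The class of 250 to 299 bp held 216 pairs, that of 300 to 349 bp 223 and that of 350 to 399 bp 189. Numbers then fell to 144, 130 and 97 in the next 3 classes, and 112 pairs lay 550 to 600 bp apart. The fullest class of 25 bp ran from 300 to 324 bp, with 117 pairs. The counts thus rose steeply up to 300 bp and declined over the classes from 350 to 549 bp. Beyond 600 bp, isolated pairs numbered 47 to 87 per 50 bp up to 1199 bp, and 18 to 62 from there to 2999 bp. Under 150 bp there were 26 isolated pairs in all, the closest 57 bp apart. The peak caller's minimum spacing is not given in the sources used here, and its part in the scarcity of short distances was not tested. At the edges of the rule, pairs 146 and 148 bp apart had listed heights of 21 to 47. Those 151 bp apart had 22 to 29, and those 597 to 603 bp apart 20 to 279.

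**Figure D1:**
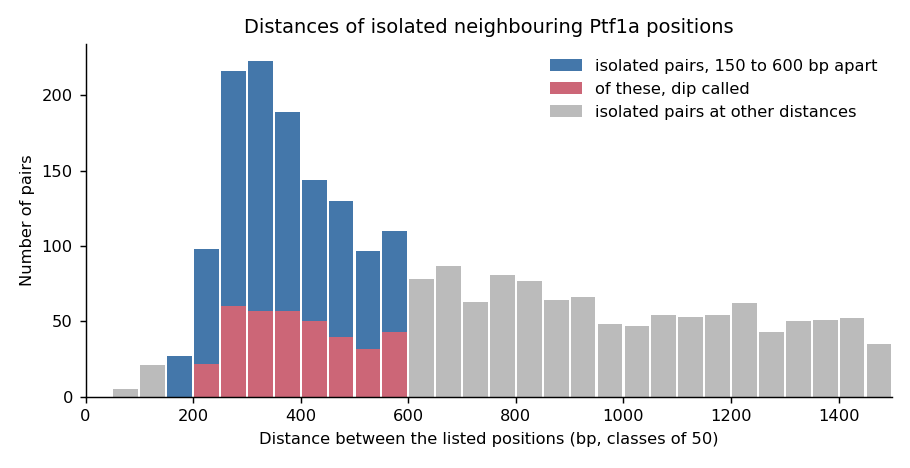
Number of isolated neighbouring listed pairs (no other position within 3000 bp) by distance in classes of 50 bp. Blue bars are the pairs described, with the part in which a dip was called in red, and grey bars are isolated pairs at other distances; the fullest class, 300 to 349 bp, held 223 pairs.

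Listed positions in close pairs exceeded input about as often as positions anywhere in the list. Within 50 bp of the position, 2355 of the 2472 sites (95.3%) had more ChIP than input reads (exact binomial test adjusted over all listed positions, threshold 0.05), against 95.6% of all listed positions. None had fewer, against 0.215% of the list. Both sites passed in 1129 pairs, 1 site in 97 and no site in 10. The positions were listed from this same ChIP library, so these calls are not independent evidence of binding.

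In most pairs the midpoint held fewer ChIP reads than either site. For each pair, ChIP reads with distinct position and strand were counted in windows of 51 bp (25 bp to each side) at both sites and at their midpoint, after each read's 5′ end was moved 73 bp downstream. The weaker site held 2 to 77 such reads (median 10) and the midpoint 0 to 82 (median 4). Summed over pairs, midpoints held 6107 reads, 37.9% of the 16110 at the weaker sites, and stronger sites held 42895. The midpoint lay under the weaker site in 1103 pairs (89.2%), level with it in 35 and over it in 98.

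Pair by pair, the dip was called in 361 pairs (29.2%), against 27.1% of all 2470 neighbouring pairs of these distances (exact two-sided binomial test of midpoint against weaker site, adjusted over those 2470). An excess at the midpoint was called in 9 pairs (0.728%), against 0.729%, and 866 passed in neither direction. Of 50 simulated pairs with the midpoint at 2 times the weaker site the test called 1, so most such simulated excesses were missed. The share of dips thus lay near that of the list. Testing against the weaker of the sites makes a dip harder to call, whereas listing each position for its own height makes one easier. The number depended on the window and the reference: 134 were called with windows of 15 bp to each side, and 1025 with the mean of both sites as reference. With that mean, a pair can be called though its midpoint is not under its weaker site. Shares of all 2470 pairs under these settings are not given here.

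Whether a dip was called followed the number of reads. No dip was called in the 67 pairs with under 5 reads at the weaker site, and 18 of 480 pairs (3.75%) with 5 to 9 reads had one. The share was 38.0% (190 of 500) with 10 to 19 reads, 77.9% (88 of 113) with 20 to 29 and 85.5% (65 of 76) with 30 or more. The ratio itself also differed between these classes: midpoints held 1.08, 0.538, 0.374, 0.270 and 0.259 times the reads of the weaker sites, from the shallowest class to the deepest. With under 5 reads the midpoint lay under the weaker site in 34 of the 67 pairs (50.7%), and with 5 to 9 reads in 406 of 480 (84.6%). The weaker site is the lower of 2 counts, which bears most on this ratio where reads are few.

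**Figure D2:**
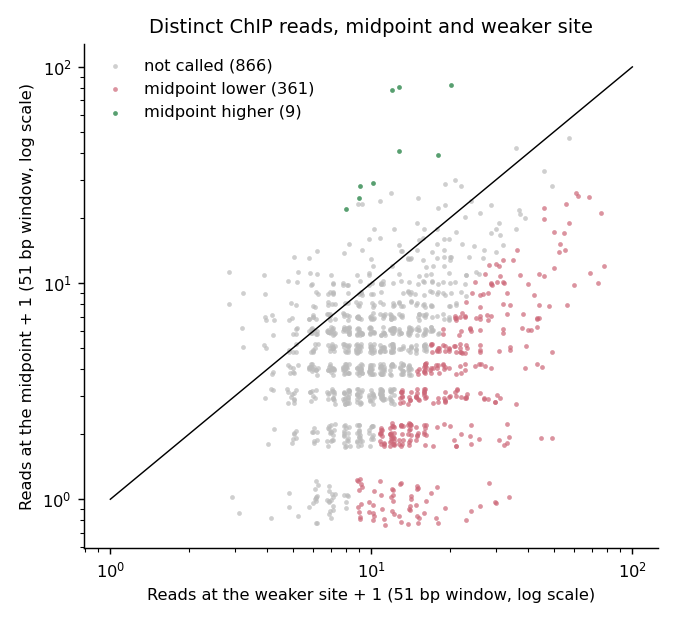
Distinct ChIP reads in a window of 51 bp at the midpoint (vertical, plus 1, log scale) and at the weaker site (horizontal, plus 1, log scale), with 1 point per pair, jittered, and a line of equal counts. Red points are the 361 pairs with a called dip, green the 9 with more reads at the midpoint and grey the 866 others; called dips lie where the weaker site had more reads.

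The strands were also counted separately. The plus strand had fewer reads at the midpoint than at its weaker site in 990 pairs, and the minus strand in 1019. Both strands did so in 856 pairs (69.3%), 1 strand in 297 and none in 83. Midpoints held 3036 plus-strand reads against 7846 at the weaker sites, and 3071 against 7860 on the minus strand. Of the 361 called dips, 357 (98.9%) had fewer midpoint reads on both strands, a share largely set by the call, which used the sum of both. Plus and minus reads are separate reads of 1 library, so this is not a second experiment.

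Summed over pairs, the strands lay about the sites much as they did about lone sites. In pairs 300 bp or more apart, 5′ ends on the strand pointing to the partner were densest 79 bp before the weaker site, and those on the other strand 73 bp beyond it, 152 bp apart. At the stronger site these values were 78 and 65 bp, 143 bp apart. At the 19356 lone autosomal positions, with no listed neighbour within 3000 bp, plus-strand and minus-strand ends were densest 148 bp apart. Reads at the weaker site were split evenly. The strand pointing to the stronger site held 50.2% of them (15129 of 30116; Wilson 95% interval 49.7 to 50.8%), and also 50.2% (48.5 to 51.9%) where the stronger site had 5 or more times the reads. Single sites could be lopsided: among weaker sites with 10 or more reads, 23 of 1202 (1.91%) had under 20% of their reads on 1 strand. The share was 10 of 1235 (0.810%) at stronger sites and 153 of 19202 (0.797%) at lone sites. Weaker sites were shallower (median 19 reads within 50 bp over all pairs, against 28 at lone sites), and fewer reads give more lopsided splits. These differences were not tested.

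**Figure D3:**
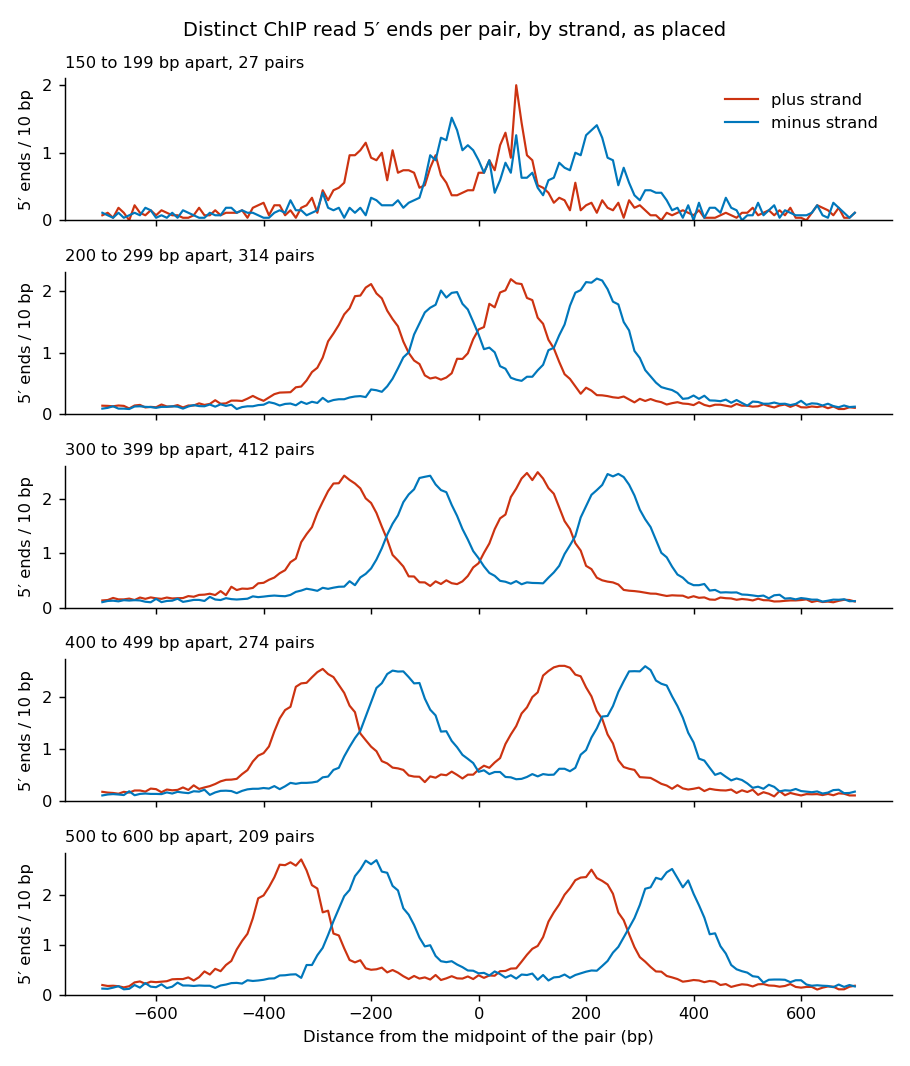
Distinct ChIP read 5′ ends per pair and 10 bp (vertical), by distance from the pair's midpoint in bp (horizontal), as placed on the plus (red) and minus (blue) strand, for 5 distance classes. In the 4 classes from 200 bp on, each strand has 2 humps, and the inner ones (minus strand of the left site, plus strand of the right) draw apart as the distance grows; the 27 pairs of the first class are noisier.

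The depth of the dip was set beside that of 2 overlapping single piles. At lone positions the mean pile, less its flanks, had fallen to 47.8% of its centre at 75 bp, 11.5% at 150 bp, 7.23% at 200 bp and 3.88% at 300 bp. Copies of this pile, scaled to both sites of each pair and set on the reads 1500 to 2000 bp away, gave 6058.2 reads at the midpoints, against 6107 observed (ratio 1.01, 95% counting interval 0.983 to 1.03). This total hides differences in both directions by distance. The ratio was 0.886 (0.819 to 0.957) at 200 to 249 bp, 0.938 (0.887 to 0.992) at 250 to 299 bp and 0.876 (0.824 to 0.930) at 300 to 349 bp, so midpoints there held slightly fewer reads than the overlap gives. At 350 to 399 bp it was 0.964 (0.901 to 1.03). It was 1.15 (1.07 to 1.24) at 400 to 449 bp, 1.32 (1.22 to 1.43) at 450 to 499 bp, 1.14 (1.02 to 1.26) at 500 to 549 bp and 1.21 (1.09 to 1.34) at 550 to 600 bp, where midpoints held more. With lone sites of like height as the model, the ratio over all pairs was 1.08. Ratios by distance under that model are not given here, so the directions above hold for the mean pile of all lone sites. The intervals cover the observed reads only, with the expected number taken as fixed.

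Weaker sites held more reads than the tail of the partner's pile gives. The stronger site's pile and the flank level together gave 2174.2 reads at the weaker sites, where 16110 were counted, 7.41 times as many (7.30 to 7.52). The ratio was 4.71 at 150 to 199 bp and 10.1 at 550 to 600 bp. In 4 pairs the weaker site did not exceed that level. Since each position was listed for its own reads, an excess was in part set by the listing.

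At the shortest distances, windows at the listed positions showed no dip. Among the 27 pairs 150 to 199 bp apart, no dip was called and the midpoint lay under the weaker site in 10. Their midpoints held 203 reads against 193 at the weaker sites, and 1.25 times (1.08 to 1.43) the overlap of single piles. Summed over these 27 pairs, however, reads were densest outside the listed positions. Plus-strand and minus-strand reads per 10 bp, after the 73 bp move, numbered 24 and 45 at 120 bp left of the midpoint. They numbered 52 and 39 at 150 bp right of it, and 20 and 27 at the midpoint. The windows at the sites thus missed the highest points, and neither ratio measures a dip between those points. The 27 pairs were also shallow, with a median of 18 reads within 50 bp of the stronger site. At 200 to 249 bp the midpoint lay under the weaker site in 87 of 98 pairs, with 22 dips called, and at 250 to 299 bp in 198 of 216, with 60 called.

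Smoothed read profiles (Gaussian, SD 25 bp) gave a like picture. The lowest point between the summits was under 50% of the lower summit in 1113 pairs, with a median of 0.207 of that summit. Random gaps among few reads deepen this measure, and among the 597 pairs with 20 or more reads at the weaker site its median was 0.181. The distance between smoothed summits had a median of 368 bp, against 360.5 bp by the listed positions, and the median absolute difference was 28 bp per pair. Each summit was sought at most 75 bp from its listed position, so this likeness was in part set by the search. In 56 pairs a summit lay at the edge of that range. Among the 1202 pairs with 10 or more reads at the weaker site, summit distances on the plus and on the minus strand differed by a median of 37 bp, under the same limit. In 108 pairs the profile rose between the sites above the lower of both summits.

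Named pairs follow, by rules on their counts and not on their surroundings, with coordinates in mm9. The 8 pairs with the most reads at the weaker site had 2 high sites each. On chromosome 5, positions 104140645 and 104141017 (372 bp apart) held 86 and 77 distinct reads in windows of 51 bp and 11 at the midpoint, 0.143 times the weaker site (exact interval 0.0685 to 0.270). Both strands shared this form: 43, 4 and 38 plus-strand reads at the left site, midpoint and right site, and 43, 7 and 39 minus-strand reads. On chromosome 15, positions 58338938 and 58339314 held 73 and 97 reads and 9 between. Positions 74425266 and 74425754 on chromosome 12, 488 bp apart, held 68 and 73 and 10 between. Dips were also called at 35648325 and 35648571 on chromosome 5 (78 and 75 reads, 20 between) and at 12094230 and 12094521 on chromosome 3 (67 and 87, 24 between). The pairs at 13897299 and 13897592 on chromosome 4 (60 and 70, 25 between) and at 86881373 and 86881681 on chromosome 8 (77 and 61, 24 between) passed as well. Distinct counts at such high sites are bounded, since a window holds at most 1 per position and strand. With all reads counted, copies included, the ratio was lower in each of the 8 pairs. It was 0.0591 for the pair 372 bp apart and 0.06 for that on chromosome 15.

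The remaining pair of the 8, at 132815739 and 132816134 on chromosome 2, did not pass (48 and 80 reads, 27 at the midpoint; exact binomial adjusted p = 0.0677). It passed under 6 of 7 alternatives, with ratios of 0.396 to 0.527 against 0.563, and did not with windows of 15 bp to each side (0.548, exact binomial adjusted p = 0.213). With all reads counted the ratio was 0.400 (32 against 80).

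The deepest dips left the midpoint nearly empty. On chromosome 4, positions 132995917 and 132996435 (518 bp apart) held 33 and 93 reads and 0 at the midpoint. Positions 150914376 and 150914874 on the same chromosome held 51 and 48 reads and 1 at the midpoint, and positions 132540025 and 132540327 held 44 and 45 and 1. The pairs at 75286091 and 75286353 on chromosome 1 (29 and 33) and at 101635270 and 101635622 on chromosome 3 (69 and 29) held 0 at the midpoint. For a midpoint of 0 the upper interval limit of the ratio was 0.118 to 0.136. Input reads in these 5 midpoint windows numbered 0 to 2.

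In a few pairs the pile lay between the listed positions. On chromosome 7, positions 78738745 and 78738998 (253 bp apart) had listed heights of 23 and 69 and held 11 and 36 reads, with 77 at the midpoint, 7 times the weaker site (3.70 to 14.6). The highest smoothed point lay 171 bp right of the left position. On chromosome 6, positions 108746758 and 108747035 held 17 and 12 reads and 80 at the midpoint, and on chromosome 5, positions 20650393 and 20650611 held 19 and 23 and 82 at the midpoint. At these 3 pairs the strands were balanced at the midpoint (43 and 34, 37 and 43, 41 and 41 plus-strand and minus-strand reads), and the input held 2, 1 and 6 reads there. The 2 listed positions thus flanked 1 high pile. At 471 and 472 bp apart, the pairs at 133768273 and 133768744 on chromosome 3 (12 and 97 reads, 40 at the midpoint) and at 36972344 and 36972816 on chromosome 15 (8 and 17, 27 at the midpoint) had an additional pile between them. With the lowest window between the sites in place of the midpoint, the ratios of these 2 pairs were 0.0833 and 0.750 (exact binomial adjusted p = 0.00989 and 0.815). The pairs on chromosomes 7 and 6 then had ratios of 1.45 (against 7) and 2.17 (against 6.67), which no longer passed (exact binomial adjusted p = 0.488 and 0.0568). The pair 218 bp apart on chromosome 5 still passed, with 2.47 against 4.32 (exact binomial adjusted p = 0.00316).

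**Figure D4:**
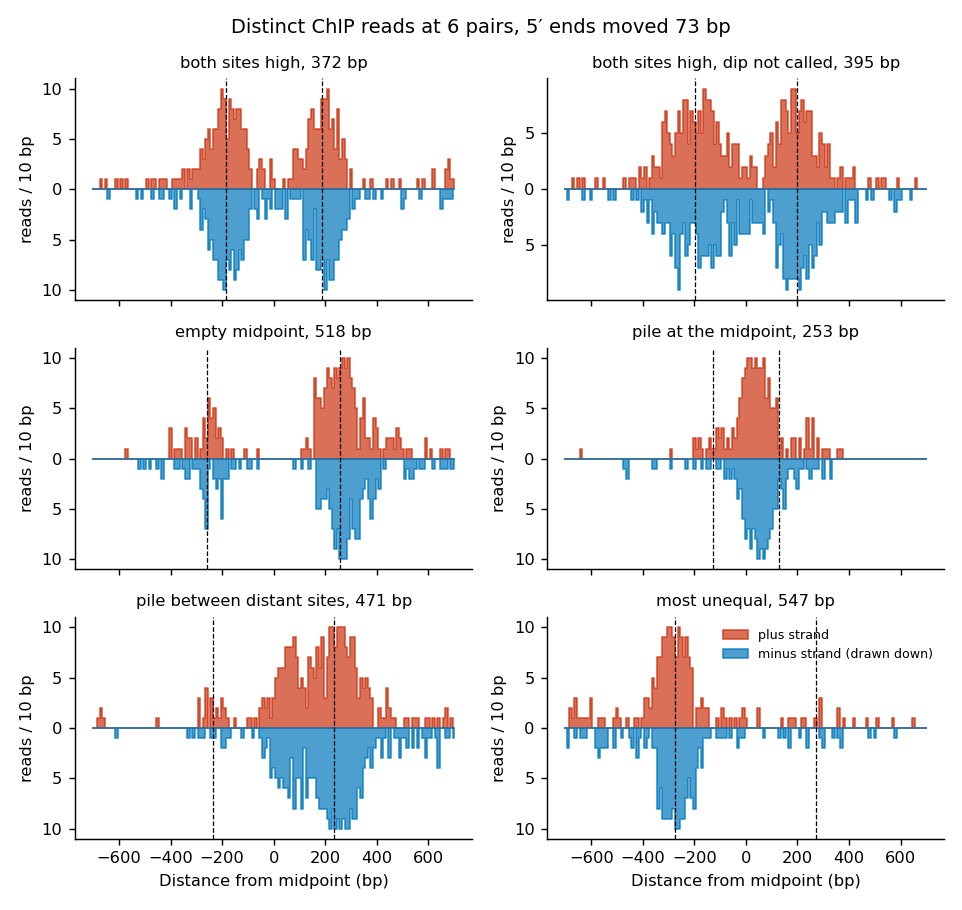
Distinct ChIP reads per 10 bp, 5′ ends moved 73 bp, by distance from the pair's midpoint in bp, with plus-strand reads drawn up and minus-strand reads down and dashed lines at the listed positions. The pairs 372, 395 and 518 bp apart have 2 piles at the listed positions, the one 253 bp apart has 1 pile between them, the one 471 bp apart has an extra pile beside the right site and the one 547 bp apart has 1 high and 1 low site; 10 reads per strand is the most a bin can hold.

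The 2 sites of a pair were often unequal. Within 50 bp of the position the stronger site held 8 to 201 distinct reads (median 49) and the weaker 5 to 149 (median 19), and the median ratio was 2.07 (quartiles 1.39 and 3.84). Lone sites had a median of 28. The left and right counts differed in 706 pairs (57.1%; exact binomial test, adjusted), against 57% of all pairs of these distances. The left site was higher in 341 of them and the right in 365, with no preferred side. The stronger site had under 2 times the reads of the weaker in 595 pairs, 2 to 5 times in 432 and 5 or more times in 209, of which 47 reached 10. In 86 pairs both sites held 50 or more reads, and in 12 both held 100 or more.

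The height of one site said little about its partner. Across the 1236 pairs, the Spearman correlation of left and right distinct counts was -0.08 and the Pearson correlation of log2(count + 1) -0.09, both within 1 library. For isolated pairs 601 to 3000 bp apart (2076 pairs) the Spearman correlation was 0.01, and for those 3001 to 12500 bp apart (3385 pairs) also 0.01. Medians were alike too: 48 and 20 reads at 601 to 3000 bp, and 45 and 20 at 3001 to 12500 bp. The list holds no height under 20, which sets a floor for the weaker site at every distance. Stronger sites were higher at longer distances, with medians of 39.5 reads at 200 to 249 bp and 60 at 550 to 600 bp, whereas medians of the weaker site stayed between 18 and 20.5 in these classes. Repeated reads made up 42.4% of ChIP reads at stronger sites and 17.6% at weaker sites.

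The 5 most unequal pairs placed a high site beside a faint one. On chromosome 7, position 143124729 held 178 distinct reads and its partner at 143125276 held 10, a ratio of 17.8 (9.46 to 37.8), with listed heights of 254 and 20. On chromosome 3, positions 107864994 and 107865423 held 201 and 12 reads, and with all reads counted 1624 and 16. On chromosome 1, positions 89844624 and 89844951 held 184 and 11, and on chromosome 2, positions 71535420 and 71535719 held 9 and 157. On chromosome 10, positions 21328114 and 21328464 held 169 and 10 reads. A window holds at most 1 distinct read per position and strand, so these ratios are bounded at the high sites. With all reads counted, copies included, the 5 ratios were 33.6 to 101.5, and that of the chromosome 7 pair 43.2. The weaker site of the chromosome 10 pair did not pass the test against input (11 ChIP against 5 input reads in all; exact binomial adjusted p = 0.139), and the other 4 did. In windows of 51 bp, midpoint and weaker site held 6 and 6 distinct reads on chromosome 7 and 5 and 6 on chromosome 3. They held 13 and 7 on chromosome 1, 13 and 5 on chromosome 10, and 0 and 4 on chromosome 2. No dip was called in any of these 5 pairs, so a separate pile at the faint site was not shown.

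Input reads were also denser at the sites than between them. Windows of 51 bp held 1.63 input reads at the sites, 1.14 at the midpoints and 0.925 in flanks 1000 to 2000 bp away. The midpoint had 0.700 times the input reads of the sites (exact 95% interval 0.658 to 0.744) and 1.24 times those of the flanks (1.17 to 1.30). Single pairs held too few for a test, since 488 midpoint windows had no input read. Around lone sites, windows at the same offsets held 1.01 reads against 1.5 at the site, 0.672 times (0.662 to 0.682). The fall of input away from the site was therefore much alike in close pairs and at lone sites. Stronger and weaker sites held 2035 and 2001 input reads within 25 bp (ratio 1.02, 0.956 to 1.08), although their ChIP reads differed. With 5′ ends not moved, the midpoint ratio was 0.848 (0.799 to 0.899).

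Input at the midpoint differed between pairs with and without a called ChIP dip, a contrast chosen after the values were seen. In the 361 pairs with a dip, the midpoint held 0.870 input reads per window and the sites 1.65, a ratio of 0.526 (0.463 to 0.596). In the 875 other pairs it held 1.25 and the sites 1.62, a ratio of 0.773 (0.720 to 0.829). The odds of an input read lying at the midpoint were 0.681 times as high where a dip was called (95% interval 0.588 to 0.786; Fisher's exact test on reads, p = 8.19e-08, adjusted 2.05e-07 over 5 such comparisons). Flanks were level, at 0.929 and 0.923 reads. The odds ratio was 0.782 (0.643 to 0.949; Fisher's exact test, adjusted p = 0.0113) at 200 to 399 bp and 0.580 (0.463 to 0.725) at 400 to 600 bp. With 20 or more ChIP reads at the weaker site it was 0.566 (0.473 to 0.677). Without the 13 pairs with the most surrounding input it was 0.781 (0.673 to 0.905; Fisher's exact test, adjusted p = 0.00103). That exclusion was made over all pairs only. The groups of 400 to 600 bp and of 20 or more reads still held the input-rich pairs on chromosomes 11 and 13 described below. The former, with a called dip, held 27 and 81 input reads at its sites and 0 at the midpoint. The latter, with none called, held 30 and 9, and 59 at the midpoint. A difference between the distance classes was not tested. Reads of 1 pair share a locus, so these p-values are too small.

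**Figure D5:**
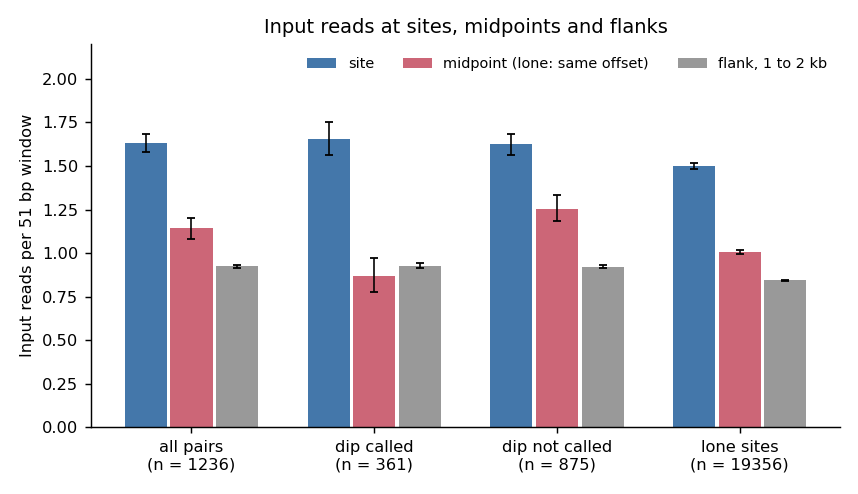
Input reads per window of 51 bp at the sites (blue), at the midpoint or, for lone sites, at the same offsets (red) and in flanks 1 to 2 kb away (grey), as means with 95% counting intervals. Midpoints held 0.870 reads in pairs with a called dip and 1.25 in the others, with sites at 1.65 and 1.62.

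The 3 pairs with the most input reads between their sites stood in input-rich stretches, and 5 of their 6 sites did not pass the test against input. On chromosome 11, positions 53953652 and 53954062 had listed heights of 60 and 92, with 129 and 128 ChIP reads within 50 bp against 158 and 166 input reads, and 348 input reads between the sites. Nearly all of its distinct ChIP reads lay on 1 strand at each site, within 25 bp: 12 plus and 0 minus at the left, 1 plus and 24 minus at the right. On chromosome 13, positions 3372329 and 3372812 (heights 94 and 52) had 84 and 38 ChIP against 113 and 22 input reads, with 329 input reads between. Distinct ChIP reads of this pair were also one-sided within 25 bp. They were 0 plus and 14 minus at the left, 18 plus and 0 minus at the midpoint, and 12 plus and 2 minus at the right. Counted as distinct reads, the input between the sites came to 130 on chromosome 11 and 165 on chromosome 13. On chromosome 1, positions 87521614 and 87522019 had 14 and 17 ChIP against 17 and 31 input reads. The right site on chromosome 13 was the one that passed (adjusted p = 0.0293, exact binomial test). The surrounding 10 kb held 748, 701 and 420 input reads, against a median of 179 over all close pairs. The dip called in the chromosome 11 pair (12 and 25 reads, 1 between) thus came with an input count of 0 at the midpoint and 27 and 81 at its sites.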

How the data were processed

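For each library the authors deposited read counts, with 1 line and a value of 1 per placed read of 37 bp, and for the ChIP library a list of Ptf1a positions with a signal value (the listed height) over spans of 100 bp, per the file headers. Coordinates are mm9 (per the submitters' processing notes). Any read filter, the aligner and the peak caller were not given in the sources used here. Members, lists and tests were chosen with earlier results of these data known.

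Read 5′ ends were moved 73 bp downstream. Tests within the ChIP library counted 1 read per position and strand, whereas tests against input counted all, with an expected ratio of 0.954 ChIP reads per input read from outside the listed positions. Exact two-sided conditional binomial tests were adjusted by the Benjamini-Hochberg method (threshold 0.05) over all 30691 positions or all 2470 neighbouring pairs 150 to 600 bp apart. Intervals of ratios of 2 counts are exact (Clopper-Pearson) and those of shares Wilson, at 95%. Those of observed over expected reads at midpoints and weaker sites are Poisson intervals of the observed count. They leave out the error of the expected number, which came from counts at the same pairs and at lone sites, and are too narrow. Pairs were named by fixed ranks: the 8 with the most reads at the weaker site, the 5 lowest and 5 highest midpoint ratios by interval limit, the 5 most unequal and the 3 with the most input between. On data simulated for the dip test, 0 of 2270 unchanged pairs were called, as were 1, 7 and 8 of 50 pairs each with the midpoint at 0.5, 0.25 and 0.1 times the weaker site, so most of these simulated dips, set in a minority of pairs, were missed. With the simulated midpoint at 2 times the weaker site, 1 of 50 pairs was called. The files named no replicate. Python 3.11.15, numpy 2.4.6, pandas 2.3.3, scipy 1.17.1 and matplotlib 3.10.9 were used.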

Additional observations from a re-analysis of the deposited data

How the results depend on the processing

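The 361 called dips became 134 with windows of 15 bp to each side and 731 with the lowest window between the sites. With the mean of both sites as reference 1025 pairs were called, which does not need a midpoint under the weaker site. With no other position within 10000 bp, 225 of 751 pairs were called, where fewer pairs were tested. Shares over all neighbouring pairs under the alternatives are not given here. Under the 6 other settings the count lay within 1.5 times, from 336 to 505, including the one added after seeing the data (357, without the pairs with the most surrounding input). The midpoint over the expected overlap moved from 1.01 to 1.08 with lone sites of like height, and the input ratio from 0.700 to 0.848 with 5′ ends not moved. The excess at 133768273 on chromosome 3 gave a ratio under 1 in 2 settings. It was 0.734 with the mean of both sites, which did not pass (exact binomial adjusted p = 0.114), and 0.0833 with the lowest window (exact binomial adjusted p = 0.00989). At 36972344 on chromosome 15 the ratio was 0.750 with the lowest window and did not pass (exact binomial adjusted p = 0.815). The same setting ended the call for the excess at 78738745 on chromosome 7 (1.45) and 108746758 on chromosome 6 (2.17). The cause was not tested, though the lowest window is by construction never above the midpoint. Counts of sites above input, of unequal pairs and of dips on both strands, the distances and the correlation kept within their bounds under the alternatives tried. The summit distances among these were limited by the search within 75 bp of each position. No paired analysis was possible because each group had 1 library and the result comes from reads within or between these libraries. Motifs, planned only where a genome of the build was given, were not run.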

Other observations

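Outside the rule, the 1234 other neighbouring pairs 150 to 600 bp apart had a called dip in 309 (25%) and a midpoint under the weaker site in 1040 (84.3%), and their midpoints held 0.460 times the reads of the weaker sites, against 0.379 times in the close pairs described. Of the pairs 150 to 600 bp apart, 24 lay on chromosome X, 9 of them isolated. The left and right counts of these other pairs had a Spearman correlation of 0.05.

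The 26 isolated pairs under 150 bp apart (57 to 148 bp, median 114) had more reads at the midpoint than at the weaker site. In windows of 12 bp to each side, the weaker sites held 69 distinct ChIP reads in all and the midpoints 181, and the midpoint lay under the weaker site in 1 pair. Their lower listed heights had a median of 22.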
